A study of Mus musculus with 34 samples.

Results

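Collagen chains are the polypeptides from which the collagens of the extracellular matrix are wound, and each is encoded by a gene of its own. They were taken as every row of the deposited gene table whose symbol has the form Col, a type number, the letter a and a chain number, which gave 43 of 24103 entries, in 26 collagen types and 8 structural classes. Of the 43 chains, 36 reached 1 FPKM in at least 3 libraries and were tested among 14595 genes. The 7 chains under this filter were Col4a3, Col4a4, Col6a4, Col17a1, Col19a1, Col20a1 and Col25a1. FPKM counts sequenced fragments per transcript length and library size, so levels of different chains are compared per length.

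RNA was sequenced in 34 mouse libraries of 9 groups. The differentiation course used CBMS1, a female embryonic stem cell line of strain background CBA/MsM kept in 2i/LIF (day 0, n = 3), its epiblast-like cells after 2 days (day 2, n = 5) and embryoid bodies grown from those in plain GK15 medium with no added factors (days 3, 4, 5 and 6, n = 3 each, and day 7, n = 5). EpiSC are female C57BL6 epiblast stem cells of the line EpiSC7, grown with Activin and FGF on fibroblasts (n = 3). MEF are fibroblasts of 12.5-day C57BL6 embryos in D-MEM with 10% serum, taken from 2 cultures at passages 0, 1 and 2 (n = 6). The course thus rests on 1 cell line, and the EpiSC libraries can hold RNA of the fibroblasts beneath the cells.

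In the helical part of a collagen the chain is a repeat that opens with a glycine each time, and the chains of a molecule wind around each other after their prolines and lysines have been hydroxylated in the endoplasmic reticulum. Fibrillar collagens (types I, II, III, V and XI among them) form the fibres of connective tissue and cartilage, type IV forms the network of basement membranes, type VI forms beaded filaments around cells, and the FACIT collagens sit on the surface of fibrils. The multiplexins, types XV and XVIII, lie in and near basement membranes and release endostatin-like fragments.

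The glycine repeat can be read in the genes themselves. In the longest coding model of each chain (GRCm38, GENCODE M21, all 43 chains found), the longest unbroken run of codon triplets that open with GGN, a glycine codon, was 216 to 344 triplets in the 11 fibrillar chains, whereas the 6 type IV chains had no run over 66 triplets and were broken into 22 to 27 runs of at least 5. Exons of exactly 54 coding bases, which hold 6 triplets, numbered 21 to 33 in fibrillar chains and 1 to 3 in type IV chains. The first such exon whose 6 triplets all open with GGN is shown for 6 chains, because these carry the changes described further on. They are the fibrillar chains Col1a2, Col3a1, Col5a1 and Col11a1, the FACIT chain Col9a2 and the network chain Col4a1. The GGN codon that opens each triplet is in capitals, 5′ to 3′ on the coding strand. GGN codons at other places in a triplet, as in Col5a1 and Col11a1, are in lower case.
Col1a2, chr6:4515481-4515534, plus strand: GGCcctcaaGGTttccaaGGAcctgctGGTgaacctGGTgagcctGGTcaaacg
Col3a1, chr1:45325360-45325413, plus strand: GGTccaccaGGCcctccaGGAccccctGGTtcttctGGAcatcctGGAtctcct
Col5a1, chr2:27965251-27965304, plus strand: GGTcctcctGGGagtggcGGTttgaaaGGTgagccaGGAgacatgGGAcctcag
Col11a1, chr3:114108281-114108334, plus strand: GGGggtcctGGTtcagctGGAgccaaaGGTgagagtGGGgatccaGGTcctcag
Col9a2, chr4:121043696-121043749, plus strand: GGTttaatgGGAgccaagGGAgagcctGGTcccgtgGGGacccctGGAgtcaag
Col4a1, chr8:11245211-11245264, minus strand: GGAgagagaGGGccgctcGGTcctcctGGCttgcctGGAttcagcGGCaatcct

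The libraries were alike in depth and detection. Relative depth, read from the steps of low FPKM values, was 0.857 to 1.18 times the median, and 11303 to 12212 genes per library reached 1 FPKM. The FPKM summed over all genes was 485696 to 990727, the highest in day 3 replicate 3 and 734764 in the next. By the labels 19 libraries belong to one project, here called A, and 15 to another, B. Day 0 and MEF were in project A alone, EpiSC in B alone and the other groups in both. In 9 of the 25 course libraries a cell type field names another stage than the source name, which was followed. Dates in the titles place the course libraries of a day, from day 2 on, in separate cultures of the same cell line. The 6 MEF libraries come from 2 cultures and the EpiSC libraries from 1 line within days of each other, so p-values with these groups cover the spread among libraries that are not all independent. All FPKM here are of bulk samples, in which fewer cells of a type and less RNA per cell cannot be told apart.

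Summed collagen RNA was lowest in the stem cells, higher in the epiblast-like cells, lower again by day 4 and then rose to day 7. It was by far highest in fibroblasts. The 43 chains together summed to 43.8 ± 1.79 FPKM at day 0 (SD, n = 3), 157 ± 15.9 at day 2 (n = 5), 95.8 ± 3.10 at day 3 (n = 3), 62.4 ± 8.38 at day 4 (n = 3), 97.1 ± 21.6 at day 5 (n = 3), 206 ± 25.3 at day 6 (n = 3) and 411 ± 56.4 at day 7 (n = 5). EpiSC stood at 514 ± 111 (n = 3) and MEF at 12205 ± 1918 (n = 6). As a share of all FPKM these sums were 0.00682% at day 0, 0.0828% at day 7, 0.10% in EpiSC and 2.13% in MEF. Groups at day 6 and day 7 did not overlap (178 to 226 against 346 to 494 FPKM), and day 7 overlapped EpiSC (406 to 627). A mean of at least 1 FPKM was reached by 8 chains at day 0, 9 at days 2, 3 and 4, 16 at day 5, 22 at day 6, 24 at day 7 and in EpiSC, and 30 in MEF.

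**Figure D1:**
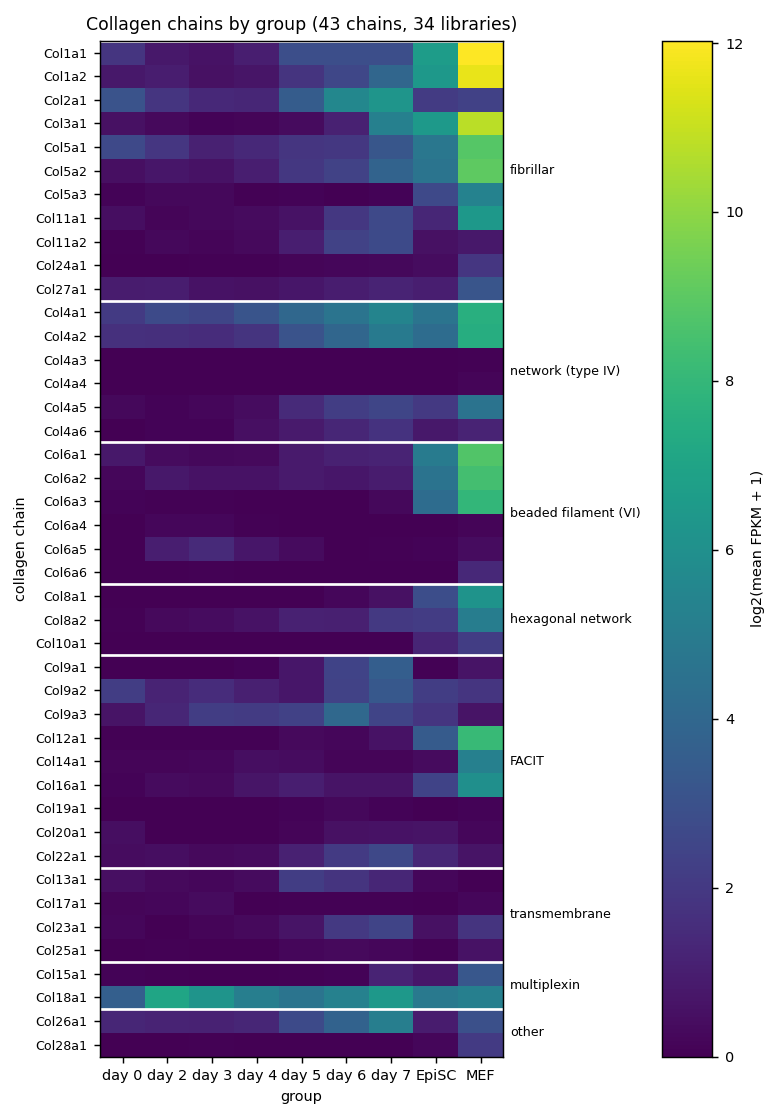
Mean level of each of the 43 collagen chains (rows, ordered by class) in the 9 groups (columns), as log2(mean FPKM + 1) by colour. Most chains are brightest in MEF, Col18a1 is brightest at day 2, and Col2a1, Col9a1 and Col26a1 are brightest at day 7.

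The make-up changed with the total. Col18a1 alone was 84.0% of collagen FPKM at day 2, 75.9% at day 3 and 55.9% at day 4, and Col2a1 led at day 6 with 22.1%. Fibrillar chains were 42.0% at day 0, 5.91% at day 2, 40.8% at day 7, 64.7% in EpiSC and 83.9% in MEF. Type IV chains were highest at day 5 with 25.3% and made up 3.23% in MEF. Of the 36 tested chains, 24 had their highest group mean in MEF, 8 at day 7 and 1 each at days 2, 3, 5 and 6. Among the 24, Col6a6, Col14a1, Col24a1 and Col28a1 passed the filter through MEF libraries alone. Col5a3, Col6a3, Col8a1, Col10a1 and Col12a1 passed it through MEF and EpiSC libraries alone. Within the course alone, 25 of 36 were highest at day 7, some at low levels, such as Col24a1 at 0.204 and Col6a3 at 0.205 FPKM. Peaks were not counted over all genes, so these counts have no share to be read against.

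**Figure D2:**
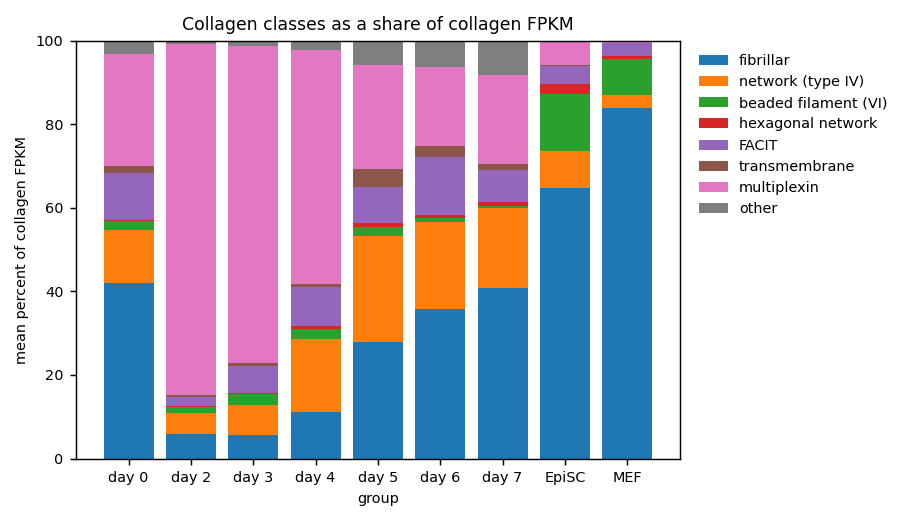
Mean percent of the summed collagen FPKM held by each of the 8 classes (colours) in the 9 groups (bars, adding to 100%). The multiplexins hold 84.1% at day 2 and the fibrillar chains 83.9% in MEF.

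Levels were compared with limma on log2(FPKM + 1) with all 34 libraries in 1 fit. Calls needed an adjusted p (Benjamini-Hochberg, over 14595 genes) below 0.05 and a difference of 1 or more. Log2 differences are on this scale, which understates the change of low genes, and every adjusted p is from limma. A moderated F test over the 7 course groups, whose means also had to span 1 or more, called 23 of 36 chains, beside 54.6% of all genes. Comparisons that share a group, such as those with day 2 or day 7, are not independent of each other.

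From stem cells to epiblast-like cells 1 chain was called higher and 2 lower. Col18a1, the multiplexin whose end releases endostatin, (deposited at chr10:76514924-76629275, mm9) rose by 3.4 ± 0.12 (log2 difference ± SE, adjusted p = 3.25e-20). It stood at 11.8, 12.3 and 10.7 FPKM at day 0 and at 121, 118, 135, 154 and 133 FPKM at day 2. All day 2 libraries were far above all day 0 libraries. Col1a1, the main chain of type I collagen, fell by 1.10 on the log2 scale (SE 0.23, adjusted p = 2.05e-04), from 2.09, 2.74 and 3.03 FPKM to 0.160 to 1.17 FPKM. Col2a1, the chain of cartilage collagen, fell by 1.23 (SE 0.30, adjusted p = 9.96e-04), from 4.34, 9.48 and 8.88 FPKM to 1.59 to 3.68 FPKM, and neither pair of groups overlapped. These 3 of 36 chains, 1 higher and 2 lower, stand beside 16.8% of all genes, 7.69% higher and 9.09% lower. Short of the minimum difference were, among others, Col6a5 (0.95, adjusted p = 1.68e-06), Col9a2 (-0.94, adjusted p = 1.50e-02) and Col5a1 (-0.79, adjusted p = 4.46e-04). Project A alone called 2, with Col1a1 at -0.86. Without day 2 replicate 5 the difference of Col1a1 was -0.97, under the minimum of 1.

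Col18a1 then declined through early aggregation and came back. Its libraries were at 74.2, 71.6 and 72.4 FPKM at day 3, at 30.0, 39.3 and 35.3 at day 4 and at 23.8, 20.2 and 26.8 at day 5, with no overlap between neighbouring days. The step from day 3 to day 4 was a fall by 1.05 (SE 0.14, adjusted p = 4.36e-06), the only chain called of 36 in that step, where 2.30% of all genes were called, 0.911% higher and 1.38% lower. The steps before and after it were -0.85 ± 0.12 (adjusted p = 1.62e-05) and -0.54 ± 0.14 (adjusted p = 3.40e-03), both short of the minimum difference. The fall to day 4 was -0.95 without day 4 replicate 1, -0.93 in project B alone and -0.85 after quantile normalization, which also end the call. Between day 2 and day 3, limma called 0 of 36 chains, beside 1.87% of all genes, 0.911% higher and 0.959% lower, and 4 chains (11.1%) had an unadjusted p under 0.05, as had 35% of all genes. Without day 3 replicate 1 it called 1. Col18a1 was at 36.6, 42.5 and 35.6 FPKM at day 6 and rose by 1.13 ± 0.12 to day 7 (adjusted p = 2.95e-08), where it stood at 75.3, 90.9, 74.4, 85.0 and 102 FPKM. Day 7 was still below day 2 in every library, by 0.63 on the log2 scale (adjusted p = 6.09e-06).

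**Figure D3:**
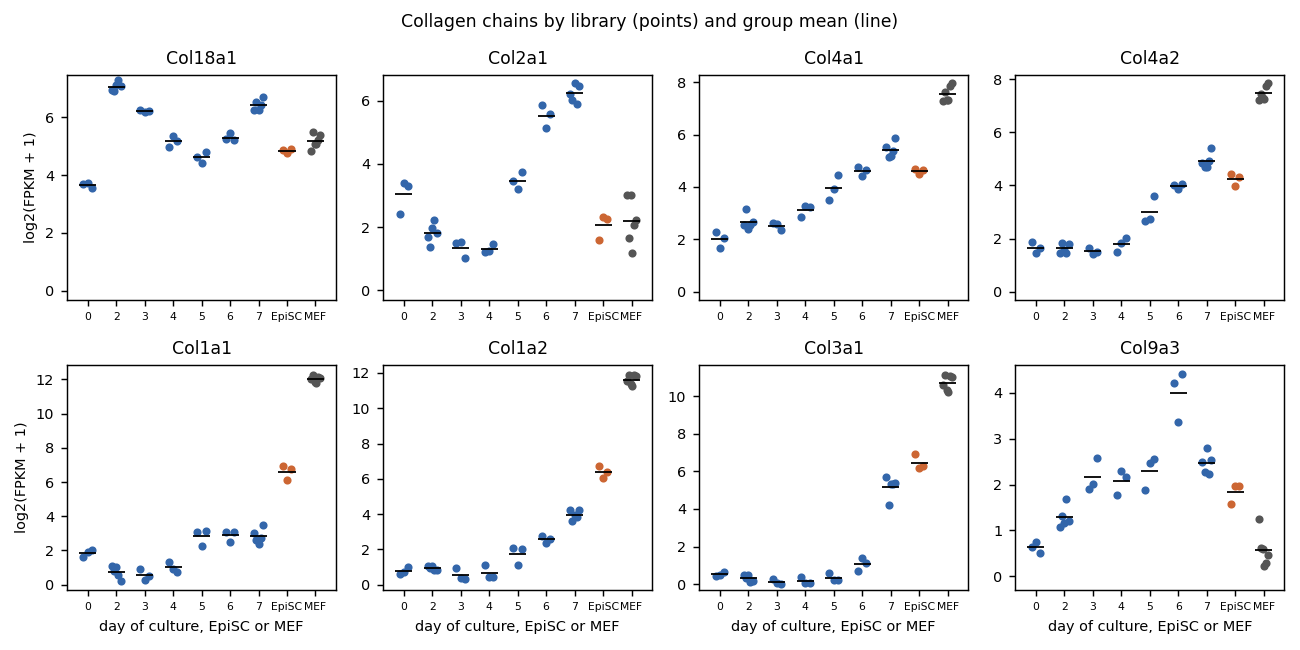
Levels of 8 chains in each library, as log2(FPKM + 1), by day of culture and in EpiSC and MEF; points are libraries and lines group means. Col18a1 falls and returns within the course, Col4a1 and Col4a2 climb from day 4 on, Col3a1 appears at day 7, and Col9a3 is highest at day 6.

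At day 5 3 of 11 fibrillar chains and 2 of 4 type IV chains rose, with 1 transmembrane chain and Col26a1. In that step limma called 7 of 36 chains, all higher, beside 7.77% of all genes, 6.22% higher and 1.55% lower. Col2a1 rose by 2.16 ± 0.34 (adjusted p = 9.17e-06), from 1.30, 1.38 and 1.75 FPKM at day 4 to 9.90, 8.18 and 12.3 FPKM. Col1a1 rose by 1.83 ± 0.26 (adjusted p = 2.28e-06), from 1.47, 0.920 and 0.707 to 7.51, 3.89 and 7.83 FPKM. Neither chain had overlapping groups. Col13a1, a transmembrane collagen of cell contacts, rose by 1.82 ± 0.18 (adjusted p = 1.90e-09) to 2.06, 3.38 and 5.37 FPKM, its highest day. The others were Col1a2 (1.07 ± 0.23, adjusted p = 5.65e-04), Col4a2 (1.21 ± 0.21, adjusted p = 3.89e-05), Col4a5 (1.02 ± 0.14, adjusted p = 1.38e-06) and Col26a1 (1.45 ± 0.53, adjusted p = 3.97e-02). Without day 5 replicate 3, 4 chains were called, and Col26a1, Col1a2 and Col4a2 (0.92) were not among them. The call of Col26a1 was lost on leaving out any 1 of the 6 libraries of days 4 and 5, that of Col1a2 also without day 5 replicate 1 or day 4 replicate 2 or 3, and that of Col4a5 without day 4 replicate 1 (0.99). Project B alone called 7 chains. Project A alone called 5, but it holds 1 library at each of days 3 to 6, so its spread was taken from the other groups and lone libraries were assumed to vary like them.

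At day 6 all 6 tested chains of cartilage-type fibrils rose. Type II collagen is the core of these fibrils, type XI (Col11a1 and Col11a2) lies inside them, and type IX (Col9a1, Col9a2 and Col9a3) decorates their surface. These 6 genes were called higher, with Col23a1, a transmembrane collagen, as the seventh of 36 chains, beside 4.96% of all genes, 2.19% higher and 2.77% lower. Col2a1 reached 57.6, 33.8 and 47.0 FPKM (2.07 ± 0.34, adjusted p = 3.51e-05). Col9a3 went from 2.69, 4.54 and 4.89 FPKM at day 5 to 17.5, 9.26 and 20.2 FPKM (1.69 ± 0.25, adjusted p = 7.67e-06). Both groups of both chains were apart. Col9a1 rose by 1.67 ± 0.23, Col9a2 by 1.66 ± 0.36, Col11a2 by 1.39 ± 0.17, Col23a1 by 1.35 ± 0.26 and Col11a1 by 1.27 ± 0.22, with adjusted p from 5.51e-07 to 1.23e-03. Col11a1 was at 0.95 without day 6 replicate 3 and lost its call there. Project B alone called 8, all 7 of these among them. Project A alone, with 1 library a day, did not call Col11a1 (adjusted p = 0.135) and Col9a2 (adjusted p = 0.0822) and called Col22a1, Col4a1 and Col4a2 instead. In a fit of the 2 days only, Col11a1 was not called (adjusted p = 0.0559). With the culture course as a block, Col26a1 was called too (1.07, adjusted p = 0.0151).

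Other genes of cartilage and of the notochord, tissues known for these collagens, were followed beside them. A list of 8 cartilage markers summed to 2.40 to 3.93 FPKM at day 4, 6.44 to 14.8 at day 5, 18.7 to 31.7 at day 6 and 21.4 to 30.1 at day 7. The transcription factor Sox9, which is known to drive Col2a1, averaged 0.301 FPKM at day 4, 6.77 at day 5, 15.1 at day 6 and 13.5 at day 7, while Acan, the main cartilage proteoglycan, stayed at 0.218 FPKM at day 7. A list of 8 notochord and floor plate markers, T and Shh among them, summed to 60.9 to 187 FPKM at day 4, 563 to 1017 at day 5, 348 to 705 at day 6 and 198 to 362 at day 7. The cartilage list was highest in MEF, at 35.8 to 97.8 FPKM. Lists of other cell types rose over these days too. A list of 8 neural progenitor markers summed to 71.4 to 95.5 FPKM at day 4 and 234.5 to 338 at day 7. A list of 10 endoderm markers summed to 30.2 to 62.3 FPKM at day 4 and 95.4 to 124 at day 7. The part of any of these cell types in the collagen levels was not tested.

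From day 6 to day 7 4 fibrillar chains rose, Col3a1, Col5a2, Col1a2 and Col5a1, while Col1a1 did not pass the test (-0.037 ± 0.23, adjusted p = 0.935). Of 36 chains, 8 were called higher and 1 lower, beside 4.80% of all genes, 2.80% higher and 2.00% lower. Col3a1, the chain of reticular fibres, rose by 4.10 ± 0.24 (adjusted p = 2.27e-14), from 0.641, 1.62 and 1.20 FPKM at day 6 to 51.1, 17.2, 39.1, 38.6 and 40.8 FPKM. The gene was deposited at chr1:45368383-45406551 (mm9). It had stayed at or under 0.549 FPKM in every library up to day 5. Its neighbour on chromosome 1, Col5a2, whose deposited end lies 24.6 kb away (mm9), rose by 1.48 ± 0.16 (adjusted p = 2.17e-08), from 2.83, 5.69 and 4.10 to 12.8, 12.4, 12.6, 14.8 and 13.2 FPKM. Col5a1, which joins Col5a2 in type V collagen, rose by 1.24 ± 0.18 (adjusted p = 3.77e-06) and Col1a2 by 1.4 ± 0.21 (adjusted p = 4.96e-06). The day 7 libraries were above all day 6 libraries for each of these 4 chains. Col15a1, Col9a1, Col18a1 and Col26a1 were the other rises.

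Col9a3 was the chain that fell. Its 5 libraries at day 7 were at 4.65, 3.85, 5.98, 3.68 and 4.80 FPKM, all below the day 6 libraries (log2 difference -1.52 ± 0.22, adjusted p = 4.64e-06), while its partners Col9a1 and Col9a2 stood at 11.1 ± 4.00 and 8.83 ± 2.05 FPKM (SD, n = 5). The ratio of Col9a2 to Col9a3 was 0.273 ± 0.0454 at day 6 (n = 3) and 1.92 ± 0.203 at day 7 (n = 5). Project A alone called 6 chains in this step, against 1 library at day 6, and project B 11. With the culture course as a block, Col4a2 was called too (1.04, adjusted p = 5.87e-04). Col15a1 was at 0.93 without day 7 replicate 1 and at 0.99 without replicate 5, Col9a1 was at 0.99 without replicate 3, and Col26a1 lost its call without day 6 replicate 2 or 3 or day 7 replicate 1, 4 or 5.

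Markers of other cell types were followed over the same step. The fibroblast list without collagens (17 genes) summed to 161 to 185 FPKM at day 6 and 167 to 266 FPKM at day 7, and 8 endothelial markers to 8.97 to 19.4 and 19 to 66.6 FPKM. Of the fibroblast genes 3 of 17 were called higher and 0 lower at day 7, and of the endothelial genes 5 of 8 and 0, beside 2.80% of all genes higher and 2.00% lower. The endothelial list was already at 26.85 to 30.5 FPKM at day 0, in stem cells, so its level is not particular to day 7. The defining endothelial marker Cdh5 averaged 1.43 FPKM at day 6 and 4.96 at day 7. The part of fibroblast or endothelial cells in the collagen levels was not tested.

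Over the whole aggregate culture, from day 2 to day 7, 20 of 36 chains were called higher and 0 lower, beside 26.1% of all genes, 15.1% higher and 11% lower. The median difference was 1.26 over the 36 chains and 0.017 over all genes tested. All 4 tested type IV chains, 8 of 11 fibrillar chains and 4 of 7 FACIT chains rose. The largest differences were those of Col3a1 (4.87 ± 0.21, adjusted p = 5.09e-19), Col2a1 (4.43 ± 0.26, adjusted p = 1.49e-15), Col26a1 (3.90 ± 0.41, adjusted p = 8.34e-10), Col9a1 (3.49 ± 0.18, adjusted p = 3.15e-17) and Col4a2 (3.28 ± 0.16, adjusted p = 1.88e-17). None of the 5 tested type VI chains was called. Their best known members, Col6a1, Col6a2 and Col6a3, stood at 1.27, 0.897 and 0.205 FPKM at day 7. Col6a5, a minor type VI chain, was highest at day 3, with 1.57, 1.70 and 1.72 FPKM, and was at 0.0143 to 0.0636 FPKM at day 7. With the culture course as a block, Col6a5 was called lower than at day 2 (-1.06, adjusted p = 4.23e-09). Without day 7 replicate 1 the difference of Col15a1 was 0.96, under the minimum. Project A alone called 20 chains higher, and project B 20 higher and 1 lower.

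The type IV genes lie in pairs that point away from each other. In the deposited annotation (mm9) the ends of Col4a1 and Col4a2 on chromosome 8 are 3 bases apart, those of Col4a4 and Col4a3 on chromosome 1 are 72 bases apart and those of Col4a6 and Col4a5 on chromosome X are 1343 bases apart. In RefSeq (GRCm38.p6) the windows from 250 bases before to 50 after the starts of Col4a1 and Col4a2 overlap by 78 bases. Both windows are shown because the chains of this pair rose together, each on its own strand, with the shared bases in capitals.
Col4a1, chr8:11312777-11313076, minus strand: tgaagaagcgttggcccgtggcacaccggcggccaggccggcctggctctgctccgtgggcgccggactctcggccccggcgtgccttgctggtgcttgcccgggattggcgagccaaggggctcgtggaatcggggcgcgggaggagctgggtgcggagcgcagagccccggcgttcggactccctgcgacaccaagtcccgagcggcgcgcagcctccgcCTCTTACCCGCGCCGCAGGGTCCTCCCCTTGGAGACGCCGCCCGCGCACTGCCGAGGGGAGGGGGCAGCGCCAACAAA
Col4a2, chr8:11312555-11312854, plus strand: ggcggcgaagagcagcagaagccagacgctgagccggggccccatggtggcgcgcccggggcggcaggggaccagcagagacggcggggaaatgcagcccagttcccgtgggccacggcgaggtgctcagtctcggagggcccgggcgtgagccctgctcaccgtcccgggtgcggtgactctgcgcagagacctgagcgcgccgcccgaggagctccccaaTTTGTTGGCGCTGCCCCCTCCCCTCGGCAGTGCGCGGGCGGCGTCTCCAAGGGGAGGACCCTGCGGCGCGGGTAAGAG

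Col4a1 and Col4a2, the chains of the common basement membrane network, climbed from day 4 onward. Col4a1 was at 6.14, 8.75 and 8.39 FPKM at day 4, 10.4, 14 and 20.9 at day 5, 26.2, 20.4 and 23.8 at day 6 and 45.0, 34.1, 35.6, 40.8 and 57.5 at day 7. Col4a2 was at 1.82, 2.55 and 3.08 FPKM at day 4, 5.29, 5.71 and 11 at day 5, 15.1, 13.6 and 15.6 at day 6 and 28, 25.2, 24.6, 29.1 and 41.4 at day 7. Days 4, 5, 6 and 7 did not overlap for Col4a2, and for Col4a1 only days 5 and 6 did. The ratio of Col4a1 to Col4a2 was not constant. It was 1.4 ± 0.0938 at day 0, 2.59 ± 0.410 at day 2, 3.18 ± 0.396 at day 4, 1.44 ± 0.0985 at day 7, 1.32 ± 0.139 in EpiSC and 1.07 ± 0.0435 in MEF. Col4a5 and Col4a6, the X-linked pair of the kidney and skin networks, rose by 2.38 ± 0.11 and 1.64 ± 0.09 from day 2 to day 7 (adjusted p = 4.28e-18 and 9.68e-17), to 4.72 ± 0.434 and 2.38 ± 0.300 FPKM (SD, n = 5). Col4a3 and Col4a4 stayed at or under 0.252 FPKM in every library.

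Promoter windows of the same length were found for 34 of the 43 chains, 37 windows in all (RefSeq, GRCm38.p6). Those of Col1a1, Col2a1, Col4a3, Col5a2, Col9a3, Col12a1, Col14a1, Col22a1 and Col26a1 were not among them. Of the 37 windows, 22 (59.5%) held GGGCGG, the core of an Sp factor site, on either strand, beside 35.7% of all 32851 windows. The letters CCAAT were in 12 (32.4%, beside 37.4%) and TATAAA in 5 (13.5%, beside 13.6%). The median share of G and C was 60.0% in collagen windows and 52.7% in all windows. Matches can share bases between motifs and describe letters only. The windows of Col1a2 and Col3a1, which were both among the rises at day 7, are shown to compare their letters; capitals mark the letters of these 3 motifs on either strand.
Col1a2, chr6:4505368-4505667, plus strand: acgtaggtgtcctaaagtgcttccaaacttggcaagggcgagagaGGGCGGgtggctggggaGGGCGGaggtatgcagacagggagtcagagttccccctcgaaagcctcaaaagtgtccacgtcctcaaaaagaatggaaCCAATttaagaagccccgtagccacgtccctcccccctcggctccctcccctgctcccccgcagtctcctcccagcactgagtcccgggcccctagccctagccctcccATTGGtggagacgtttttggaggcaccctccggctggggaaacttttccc
Col3a1, chr1:45311288-45311587, plus strand: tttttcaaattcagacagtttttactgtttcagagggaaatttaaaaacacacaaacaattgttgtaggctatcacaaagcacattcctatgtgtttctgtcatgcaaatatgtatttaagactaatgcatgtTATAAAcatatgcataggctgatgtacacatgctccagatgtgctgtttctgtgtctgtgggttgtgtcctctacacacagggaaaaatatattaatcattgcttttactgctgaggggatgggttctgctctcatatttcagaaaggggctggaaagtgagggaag
The Col1a2 window held 2 GGGCGG and 2 CCAAT matches and 61.0% G and C, and the Col3a1 window 1 TATAAA match and 37.7% G and C.

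Fibroblasts carried the collagens of connective tissue at levels far above day 7, while several cartilage-type chains were lower in them. Limma called 24 of 36 chains higher and 9 lower in MEF than at day 7, beside 34.4% of all genes, 18.3% higher and 16.1% lower. The median difference was 2.01 over the chains and -0.084 over all genes. Col6a6, Col14a1, Col24a1 and Col28a1 passed the filter through MEF libraries alone, so their place among the 24 was favoured by the filter. The same holds for Col5a3, Col6a3, Col8a1, Col10a1 and Col12a1, which passed through MEF and EpiSC libraries alone. Col16a1 would not have passed on course libraries either. The leading chain Col1a1 ran from 3499 to 4882 FPKM in MEF (median 4195, n = 6), and was at 7.22, 5.06, 4.23, 5.61 and 10.1 FPKM at day 7 (9.18 ± 0.19, adjusted p = 3.24e-27). Col1a2 ran from 2412 to 3796 FPKM (median 3326) and Col3a1 from 1200 to 2214 FPKM (median 1787), 7.66 ± 0.17 and 5.53 ± 0.20 above day 7 (adjusted p = 1.13e-26 and 1.70e-21). None of these groups overlapped.

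Col6a1, Col6a2 and Col6a3, the chains of the common type VI filament, and the fibril-associated Col12a1 were high in MEF, present in EpiSC and low in every course library. Col6a1, Col6a2 and Col6a3 ran from 395 to 480, from 304 to 408 and from 210 to 297 FPKM in MEF, and no course library was above 2.11, 1.11 and 0.306 FPKM. The other type VI chains, Col6a4, Col6a5 and Col6a6, averaged 0.119, 0.326 and 1.61 FPKM in MEF. Col12a1 ran from 215 to 375 FPKM in MEF against 0.269 to 0.765 at day 7 (7.50 ± 0.12, adjusted p = 7.76e-30). Col14a1, another FACIT chain, was at 10.3 to 69.0 FPKM in MEF and at or under 0.400 FPKM in every library of the course.

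The 9 chains lower in MEF were Col2a1, Col9a1, Col26a1, Col22a1, Col11a2, Col9a3, Col9a2, Col18a1 and Col13a1. Col2a1 ran from 1.27 to 7.04 FPKM in MEF against 58.6 to 93.0 at day 7 (-4.05 ± 0.25, adjusted p = 2.04e-15). Its partner in cartilage fibrils Col11a1 went the other way, from 48.8 to 111 FPKM in MEF against 4.27 to 6.4 at day 7 (3.73 ± 0.16, adjusted p = 4.26e-19), while Col11a2 was 1.93 lower (adjusted p = 1.31e-14). Project A alone, which holds all MEF and 3 day 7 libraries, called the same numbers, 24 higher and 9 lower, and so did the fit with 1 mean per MEF culture.

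The proportion of chains of 1 collagen type differed between MEF and day 7 for most pairs. Some of these pairs combine in a molecule, while pairs of Col4a1 or Col4a2 with Col4a5 or Col4a6 are chains of different type IV molecules. Among 8 pairs of chains of 1 type with means of at least 1 FPKM in both MEF and day 7, the log2 ratio differed between them in 7 (exact two-sided permutation test, adjusted p = 0.00577 for 6 pairs and 0.0297 for 1, where 0.00433 is the smallest unadjusted p the 11 libraries allow). This test takes the 6 MEF libraries as independent, though they come from 2 cultures. With 1 mean per culture the differences were alike in size, but 2 values against 5 cannot give a p under 0.0952, so the threshold could not be reached. Col1a1 to Col1a2, which combine in type I collagen, was 1.32 ± 0.113 in MEF (SD, n = 6) and 0.427 ± 0.0918 at day 7 (n = 5), a log2 difference of 1.65. The same ratio was 2.77 ± 0.532 at day 5, 1.30 ± 0.217 at day 6 and 1.18 ± 0.126 in EpiSC. Col4a1 to Col4a2 was 0.43 lower in MEF than at day 7 on the log2 scale. Col4a5 to Col4a6 was 18.3 ± 3.84 in MEF and 2.00 ± 0.213 at day 7. Col4a1 to Col4a5 differed by -0.094, with adjusted p = 0.459. For Col4a2 to Col4a5 the highest adjusted p on leaving out 1 library was 0.0653.

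**Figure D4:**
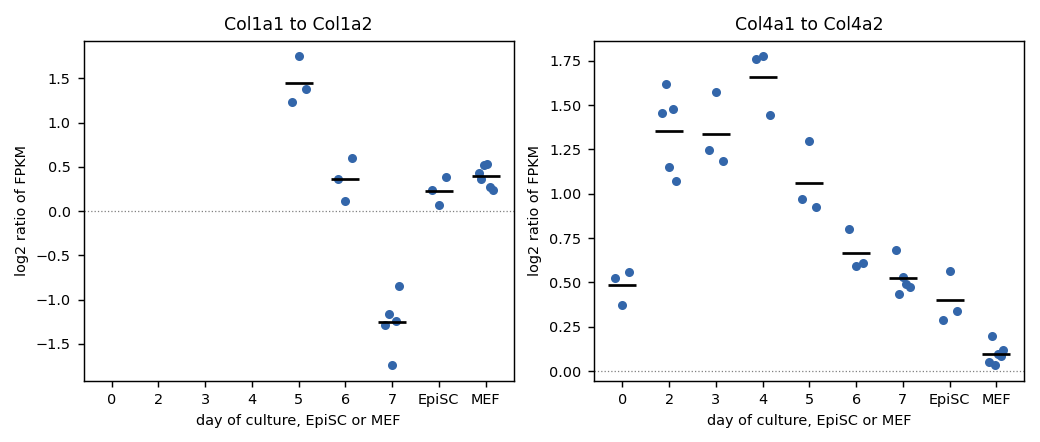
Log2 ratio of Col1a1 to Col1a2 (left) and of Col4a1 to Col4a2 (right) in each library, by day of culture and in EpiSC and MEF, for groups where both chains average at least 1 FPKM; points are libraries and lines group means. The Col1a1 to Col1a2 ratio is below 1 only at day 7, and the Col4a1 to Col4a2 ratio peaks at day 4.

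No collagen chain passed the test between fibroblast passages. Between passages 0 and 2, with culture as a block, limma called 0 of 36 chains and 0% of all genes. At an unadjusted p under 0.05, 8 chains were higher and 4 lower at passage 2 (33.3% of the 36), beside 5.95% of all genes higher and 7.35% lower. Col8a1, a short network chain of vessel and eye membranes, was at 50.9 and 39.1 FPKM at passage 0 and 104 and 107 at passage 2 (1.22 ± 0.12, adjusted p = 0.261). Col10a1, the chain of hypertrophic cartilage, was at 0.968 and 0.782 FPKM and at 5.92 and 8.46 FPKM (2.11 ± 0.30, adjusted p = 0.282). Both passages were apart for both chains, with 2 libraries each.

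EpiSC libraries held RNA of collagens that were high in MEF, most of them within the wide range of fibroblast markers relative to MEF. Whether this RNA came from feeder cells or from the EpiSC themselves was not tested. Against day 2, 18 of 36 chains were called higher and 1 lower, beside 19.1% of all genes, 10.8% higher and 8.22% lower. Col5a3, Col6a3, Col8a1, Col10a1 and Col12a1, all among the 18, passed the filter through EpiSC and MEF libraries alone. Col16a1, also among them, would not have passed on course libraries. The place of these chains among the 18 was thus favoured by the filter. Col1a1 was at 123, 67.9 and 106 FPKM in EpiSC (5.86 ± 0.23, adjusted p = 3.47e-19), Col3a1 at 119, 72.6 and 76.6 FPKM (6.15 ± 0.24, adjusted p = 1.57e-19) and Col6a1 at 37.2, 23.4 and 31.7 FPKM (4.64 ± 0.15, adjusted p = 4.18e-21). All 3 were above every day 2 library. EpiSC replicate 1 was the highest and replicate 2 the lowest of the 3 for each of these chains. Project B alone called 18 higher and 2 lower.

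The fibroblast list without collagens summed to 357 to 533 FPKM in EpiSC, 38.2 to 45.8 at day 2 and 6533 to 8157 in MEF. Of its 17 measured genes, 12 were under 10% of their MEF level at every day of the course. These 12 stood at 2.21% to 10.6% of their MEF mean in EpiSC. The 19 chains with at least 10 FPKM in MEF had a median of 6.75% of their MEF mean in EpiSC, and 13 of them lay inside the range of the markers. Col1a1 stood at 2.37 ± 0.680%, Col1a2 at 2.60 ± 0.627%, Col3a1 at 5.16 ± 1.48% and Col6a1 at 7.18 ± 1.62% (SD, n = 3 libraries). Col14a1 at 0.755% and Col11a1 at 1.76% were below the markers' range.

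The markers' range depends on the choice of the 12 genes. Over all 17 fibroblast genes it ran from 1.80%, that of Cdh11, to 20.9%, that of Mmp2, and 16 of the 19 chains lay inside, with Col18a1 alone above. Nor were chains held to the rule for markers, and Col4a1, Col4a2, Col4a5 and Col18a1 reached over 10% of their MEF level on a day of the course. Chains above the range of the 12 markers were Col18a1, Col5a3, Col4a5 and Col4a1. Col18a1 was at 78.1 ± 3.98% of its MEF mean, with 28.2, 26.2 and 28.9 FPKM in EpiSC. It was the chain lower than at day 2 (-2.21 ± 0.12, adjusted p = 1.61e-15). Col4a1 was at 12.2 ± 0.865%, Col4a5 at 12.8 ± 1.41% and Col5a3, a minor type V chain, at 13.6 ± 2.78%. Col10a1, which had under 10 FPKM in MEF, was at 1.18, 1.52 and 1.36 FPKM in EpiSC and was listed at 0 in every library from day 2 to day 7.

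**Figure D5:**
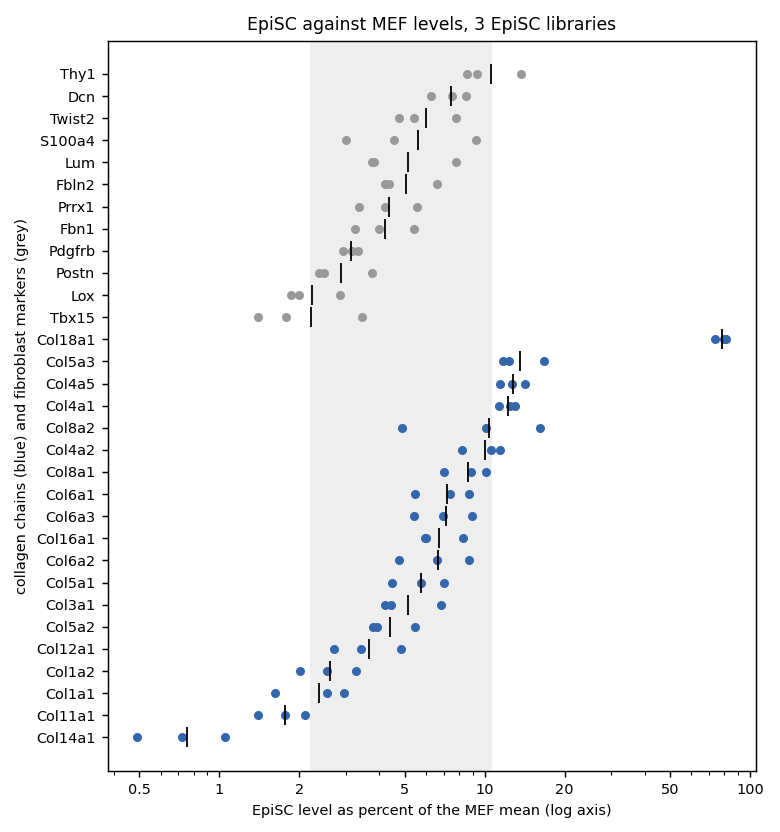
Level in each of the 3 EpiSC libraries as a percent of the MEF mean, on a log axis, for 19 collagen chains with at least 10 FPKM in MEF (blue) and 12 fibroblast markers (grey); ticks are means and the shaded band is the range of marker means. Of the 19 chains 13 lie in the band, 4 above it, Col18a1 farthest, and 2 below it.

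A fibroblast share was taken from markers that were low in the course beside MEF. By the stricter rule, which left Lox and S100a4, it was 6.05%, 3.20% and 2.50% in the EpiSC libraries. These 2 genes differed, with Lox at 2.23% and S100a4 at 5.60% of the MEF mean. Against the MEF libraries of passage 2 only, the stricter share was 8.98%, 4.62% and 3.39%. With 12 markers the share was 6.07%, 3.59% and 3.88%. Some of the 12 were expressed in the course, such as Lum, with a highest day mean of 13.7 FPKM. Pdgfrb reached a day mean of 8.50 FPKM, above its 4.54 in EpiSC. The stricter and the 12-marker share of the MEF mean were each subtracted. Then 14 chains differed from day 2 by the stricter rule and 12 with 12 markers, in place of 19, beside 18.2% and 18.3% of all genes. Where the share exceeded the EpiSC level, the value was set to nil, so a difference below day 2 can reflect this floor alone. On that basis Col1a1 and Col1a2 were at -0.74 and -0.95 against day 2 with 12 markers. Col5a2, Col11a1 and Col12a1 were at -0.30, -0.17 and -0.086. These signs do not show lower expression in EpiSC. The basement membrane chains Col4a1, Col4a2 and Col4a5 were not among the calls that were lost. Both the share and the MEF levels rest on fibroblasts grown apart from the EpiSC, and whether feeder cells keep these levels was not tested.

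Against EpiSC, MEF was higher in 25 of 36 chains and lower in 1, Col9a3, beside 36.2% of all genes, 20.2% higher and 16% lower. The 25 include Col6a6, Col14a1, Col24a1 and Col28a1, which passed the filter through MEF libraries alone. Col9a3 was at 1.99, 2.89 and 2.90 FPKM in EpiSC and 0.171 to 1.37 FPKM in MEF (-1.26 ± 0.22, adjusted p = 4.78e-06). Project and group cannot be told apart in this comparison.

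Genes that make, trim and bind collagen were read from lists. Of 23 tested genes of collagen biosynthesis, 9 rose and 2 fell from day 2 to day 7, beside 15.1% of all genes higher and 11% lower, and 19 were higher and 1 lower in MEF than at day 7, beside 18.3% and 16.1%. Serpinh1, the collagen chaperone Hsp47, averaged 76.8 ± 7.24 FPKM at day 2, 295 ± 30.8 at day 7 and 294 ± 42.8 in EpiSC. Its rise to day 7 was 1.93 ± 0.12 (adjusted p = 1.32e-14). P4ha1, a catalytic subunit of prolyl 4-hydroxylase, rose by 1.97 ± 0.22 (adjusted p = 3.43e-09), and Fkbp14, a prolyl isomerase of the endoplasmic reticulum, by 3.01 ± 0.11 (adjusted p = 1.20e-20). Crtap, a partner of prolyl 3-hydroxylase, fell by 2.05 on the log2 scale (adjusted p = 1.27e-16), with means of 40.9 FPKM at day 2 and 9.20 at day 7, and Creb3l1, a transcription factor for secretory genes, fell by 2.09 (adjusted p = 1.97e-12).

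Of 7 tested genes that cleave the procollagen ends or help to, 2 rose and 1 fell from day 2 to day 7, and all 7 were higher in MEF than at day 7, beside the same shares of all genes. Bmp1, the C-proteinase, averaged 0.880 FPKM at day 2 and 19.7 at day 7 (3.45 ± 0.13, adjusted p = 2.14e-20). Adamts2, the N-proteinase of type I collagen, was at 0.281 FPKM at day 7 and 36.4 in MEF (4.80 ± 0.15, adjusted p = 5.17e-23). Of 7 tested receptors, 2 rose to day 7 (15.1% of all genes) and 5 were higher in MEF than at day 7 (18.3% of all genes). Ddr1, a tyrosine kinase that binds collagen, averaged 2.75 FPKM at day 0, 17.9 at day 2 and 31.9 at day 7, and its rise at day 2 was 2.34 ± 0.15 (adjusted p = 2.35e-14). Ddr2, its relative that binds fibrillar collagens, was at 0.0298 FPKM at day 2, 1.83 at day 7 and 89.3 in MEF.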

How the data were processed

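The authors deposited gene-level FPKM. The submitters' processing notes name Cufflinks 2.2.1, Cuffdiff, HISAT2 2.0.4, cutadapt 1.4.1 and the build mm9; settings and the scaling between libraries are not given in the sources used here. Fragment totals, and so counting error, were unknown. Values were used as deposited, with 1 FPKM added before log2. Genes reaching 1 FPKM in 3 or more libraries were fitted with limma 3.58.1 (R 4.3.3, eBayes with trend); chain ratios used exact permutation (scipy 1.17.1) and were, like the share from 12 fibroblast markers, added after the data were seen. As a check of the code, the fit recovered most changes planted in simulated independent values of genes that were not low. This does not cover low chains or shared cultures. Symbols were matched exactly. Where genes overlap, as Col4a1 and Col4a2 nearly do, fragments may be misassigned, since use of strand in counting is not given in the sources used here. Title dates that run on from day to day tie libraries into culture courses. Deviations of libraries of 1 course correlated from -0.319 to 0.327, all above 0 only in the step from day 6 to day 7 (0.0479 to 0.327), so the course was a block only as an alternative. Any chain or list member could be named, and for Col1a1, Col2a1 and Col4a1 the 5 genes most alike among those with a course mean of at least 10 FPKM. Members, lists and comparisons were chosen with earlier results of these data known. Alternatives were other pseudocounts, filters, scalings, projects, blocks, libraries left out and fibroblast shares.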

Additional observations from a re-analysis of the deposited data

Results flagged for a closer look

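In groups of 5 or 6 libraries, 63 sets of values with a mean of at least 1 FPKM were examined for a library far from the others, and 6 had one; chance alone marks about 1 in 20 such sets. Of the 6, 3 were in MEF replicate 2, which is the second culture at passage 0. There Col6a6 was at 4.89 FPKM, beside 0.281 to 1.88 in the other libraries, Col15a1 at 19.3, beside 4.64 to 8.03, and Col26a1 at 21.2, beside 0.622 to 7.42. Without this library Col6a6 was at 0.86 on the log2 scale against day 7 and at 0.87 against EpiSC, and was called in neither comparison. At day 7, replicate 5 was high in Col4a2, with 41.4 FPKM beside 24.6 to 29.1, and in Col11a2, with 7.68 beside 4.54 to 5.28. At day 2, replicate 2 was high in Col4a1, with 7.96 FPKM beside 4.31 to 5.28. Why these libraries stood apart was not tested.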

How the results depend on the processing

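Most chain differences kept their direction and their side of the threshold: of the fits of single chains under alternatives, 8249 were unchanged in both, 158 newly passed, 57 no longer passed and 8 turned. With a pseudocount of 0.1 FPKM the counts of chains called rose to 11 at day 2 against day 0 and to 2, 4, 12 and 14 in the steps to days 3, 4, 5 and 6. With no minimum difference they were 10 at day 2 and 4, 3, 15, 14 and 16 in the steps to days 3, 4, 5, 6 and 7, beside 52.2% of all genes at day 2 and 22.1%, 12.3%, 28.4%, 14.3% and 26.7% in those steps. Quantile normalization gave 0 at day 4 and 4 at day 5, beside 319 and 1097 of all genes. Project B alone gave 1 at day 3 and 0 at day 4, beside 394 and 363 of all genes. Subtracting the share of 12 markers, with values under the share set to nil, gave 12 for EpiSC against day 2, beside 18.3% of all genes. The chains whose sign turned under this floor were Col1a1 (-0.27 by the stricter share, -0.74 with 12 markers), Col1a2 (-0.58, -0.95), Col11a1 (-0.17, -0.17), Col5a2 (-0.30 with 12 markers) and Col12a1 (-0.086 with 12 markers). The causes of these changes between settings were not tested.

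Leaving out 1 library at a time gave 2 to 4 chains at day 2 against day 0, 0 to 1 in the steps to days 3 and 4, 4 to 7 to day 5, 6 to 9 to day 6 and 7 to 10 to day 7. It gave 19 to 21 for day 7 against day 2, 19 to 20 for EpiSC against day 2, 25 to 26 for MEF against EpiSC, 32 to 33 for MEF against day 7 and 23 to 24 over the course. Chain ratios moved within 1.53 to 1.75 for Col1a1 to Col1a2 and -0.45 to -0.39 for Col4a1 to Col4a2 (log2), within 2.99 to 3.20 and 3.41 to 3.63 for Col4a1 and Col4a2 to Col4a6, 3.12 to 3.30 for Col4a5 to Col4a6, 0.42 to 0.53 for Col5a1 to Col5a2, 0.24 to 0.43 for Col4a2 to Col4a5 and -0.18 to -0.0037 for Col4a1 to Col4a5.

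With the replicate number as a block, 3, 0, 1, 7, 7 and 8 chains were called in the steps from day 0 to day 7, 20 for day 7 against day 2, 19 for EpiSC against day 2, 26 for MEF against EpiSC, 33 for MEF against day 7 and 23 over the course. With the culture course as a block, 8 were called at day 6, 10 at day 7 and 21 for day 7 against day 2. Each of these 3 counts is 1 above that without the block, and no call was lost. Replicate numbers follow the courses only in part. Correlations of deviations between same-numbered libraries ran from -0.319 to 0.281 over the steps of the course, and all were above 0 only in the step from day 6 to day 7 (0.0196 to 0.156). The MEF passages without the block gave 0. With 1 mean per MEF culture, an alternative added after the data were seen, ratio differences were 1.64 for Col1a1 to Col1a2, -0.42 for Col4a1 to Col4a2, 3.07 and 3.49 for Col4a1 and Col4a2 to Col4a6, 3.17 for Col4a5 to Col4a6, 0.33 for Col4a2 to Col4a5 and 0.47 for Col5a1 to Col5a2, none with an adjusted p under 0.127, because only 2 values stand for MEF.

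Depth limits the low chains most: chains under 1 FPKM are pulled towards no difference by the pseudocount.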

Other observations

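Genes whose levels ran most like those of 3 chains over the 25 course libraries were ranked by Pearson r of log2(FPKM + 1), as a description, since these libraries share days and culture courses. For Col2a1 they were Shisa2 (r = 0.974), Sox21, Vgll4, Galnt16 and the joint row of Mir7025 and Pdgfra (r = 0.965). For Col4a1 they were Amotl1 (r = 0.980), Zfp362, Samd14, Golim4 and Bmp1, the procollagen C-proteinase (r = 0.973). For Col1a1 they were Gnb4 (r = 0.944), Cdh2, Slit2, Mpzl1 and Lrig1 (r = 0.923).

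Col7a1, the chain of the anchoring fibrils of skin, shares its row with Mir711 and was left out of the 43 chains. That row was highest in EpiSC, at 5.42 ± 0.908 FPKM (SD, n = 3), with 1.95 ± 0.611 in MEF (n = 6) and 1.85 ± 0.279 at day 6 (n = 3), the highest day. Reads of the microRNA and of the collagen cannot be told apart there.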
